A study of Mus musculus with 12 samples.

Results

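The genes described here are 10 members of the tumour necrosis factor (TNF) superfamily that carry costimulation of T cells. They comprise 4 receptors, Tnfrsf4 (OX40), Tnfrsf8 (CD30), Tnfrsf9 (4-1BB) and Tnfrsf18 (GITR), and 6 ligands, Tnfsf4 (OX40 ligand), Tnfsf8 (CD30 ligand), Tnfsf9 (4-1BB ligand), Tnfsf11 (RANKL), Tnfsf14 (LIGHT) and Cd40lg (CD40 ligand). They were chosen by name from the 45777 genes of the table, and all 10 passed the filter on low values that left 15197 genes for testing. RNA was sequenced from CD4+ T cells taken from the spleens of wild-type C57BL/6 mice aged 7 weeks and stimulated for 3 days with anti-CD3 at 0.5 µg/ml. The 4 groups held 3 samples each: anti-CD3 alone (Control), anti-CD3 with metformin, an antidiabetic drug, anti-CD3 with FK506 (tacrolimus), an inhibitor of calcineurin, and anti-CD3 with metformin and FK506 (the combination). Anti-CD3 was common to all groups, so no unstimulated level was measured, and the drug doses of these cultures are not given in the sources used here. The methods also list soluble anti-CD28 for T cell activation, while the sample labels name anti-CD3 only. The age in the methods is also older than that in the labels, and the labels are followed here. The methods describe a selection of the cells on CD4 magnetic beads, a step meant to remove B cells and other cells without CD4. Nothing in the labels says that the 3 samples of a group came from separate mice or cultures, so the p-values measure the spread between these samples, which may be technical.

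T cell activation needs a signal through the T cell receptor and further signals from costimulatory receptors, and receptors of the TNF family provide such signals after CD28. OX40, CD30, 4-1BB and GITR are displayed mainly after activation, bind ligands of the TNF family and recruit TRAF adaptor proteins that lead to NF-kappa B. OX40 and GITR are also high on regulatory T cells. The ligands have several cellular sources. OX40 ligand and 4-1BB ligand are best known on antigen-presenting cells, whereas CD40 ligand, CD30 ligand, RANKL and LIGHT are made by activated T cells, among other cells. FK506 blocks calcineurin and so the entry of NFAT into the nucleus.

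The 4 receptor genes and Tnfsf8 lie on mouse chromosome 4 (GRCm38.p6, RefSeq), although not in 1 cluster. Tnfrsf4 (chr4:156013595-156016613, plus strand) lies 9709 bp from Tnfrsf18 (chr4:156026322-156028894, plus strand). Tnfrsf9 (chr4:150920155-150946104, plus strand), Tnfrsf8 (chr4:145267132-145315164, minus strand, 20262 bp from Tnfrsf1b) and Tnfsf8 (chr4:63831202-63861508, minus strand) are separate. Tnfsf9 (chr17:57105287-57107758, plus strand) and Tnfsf14 (chr17:57189474-57194181, minus strand) flank Cd70 on chromosome 17. Tnfsf4 (chr1:161395438-161418206, plus strand), Tnfsf11 (chr14:78277446-78308043, minus strand) and Cd40lg (chrX:57212143-57224042, plus strand) lie on chromosomes of their own. Some members share bases with another annotated gene. Tnfrsf4 overlaps Sdf4 on the same strand, Tnfrsf9 overlaps Camta1 and Tnfsf9 overlaps Gm11110 on the opposite strand, and Tnfrsf18 overlaps the antisense gene Gm16008. Whether the counting used strand is not given in the sources used here, so reads of these pairs may not have been told apart.

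RefSeq promoter windows of GRCm38.p6 were matched for 7 of the 10 genes, giving 8 windows of 250 bases upstream of a start. The genes without a window, Tnfsf4, Tnfsf9 and Cd40lg, are 3 of the 4 that rose with FK506, so the windows cover all 6 genes that fell and only Tnfsf11 of those that rose. Because 6 of the genes fell together with FK506, which acts on NFAT, the windows were searched on both strands for the NFAT core GGAAA, for the AP-1 motif TGANTCA and for the kappa B consensus. A kappa B match can overlap a GGAAA match. GGAAA stood in 7 of the 8 windows, against 55.6% of 32851 windows of all genes, TGANTCA in 3 (6.75% of all windows) and the kappa B consensus in 2 (3.9%). These matches are letters in a window and not tested binding sites. The windows of the most strongly lowered receptor genes, Tnfrsf8 and Tnfrsf9, of the lowered ligand gene Tnfsf14 and of Tnfsf11, which rose with FK506, are printed 5′ to 3′ on the strand of the gene, with matches in capitals.
Tnfrsf8, chr4:145315165-145315414, minus strand: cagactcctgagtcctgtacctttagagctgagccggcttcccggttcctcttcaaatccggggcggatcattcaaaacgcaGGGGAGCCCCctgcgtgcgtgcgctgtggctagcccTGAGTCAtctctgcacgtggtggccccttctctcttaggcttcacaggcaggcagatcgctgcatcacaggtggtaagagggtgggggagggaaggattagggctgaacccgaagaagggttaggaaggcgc
Tnfrsf9, chr4:150919905-150920154, plus strand: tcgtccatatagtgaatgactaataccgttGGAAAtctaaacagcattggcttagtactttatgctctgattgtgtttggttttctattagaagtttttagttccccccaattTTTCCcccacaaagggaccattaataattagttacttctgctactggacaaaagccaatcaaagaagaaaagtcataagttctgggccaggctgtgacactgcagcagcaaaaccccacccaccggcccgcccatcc
Tnfsf14, chr17:57194182-57194431, minus strand: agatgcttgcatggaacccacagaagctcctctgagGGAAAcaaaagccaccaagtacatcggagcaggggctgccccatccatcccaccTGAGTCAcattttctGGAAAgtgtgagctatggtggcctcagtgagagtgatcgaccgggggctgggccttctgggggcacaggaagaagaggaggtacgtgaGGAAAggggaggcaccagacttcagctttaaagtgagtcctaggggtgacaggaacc
Tnfsf11, chr14:78308044-78308293, minus strand: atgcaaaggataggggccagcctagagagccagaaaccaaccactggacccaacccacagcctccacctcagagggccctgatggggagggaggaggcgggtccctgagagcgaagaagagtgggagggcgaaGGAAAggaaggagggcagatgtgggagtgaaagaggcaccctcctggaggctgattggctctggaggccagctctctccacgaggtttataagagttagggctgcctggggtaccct
A second Tnfrsf9 window, at chr4:150927749-150927998 within the gene, held 3 GGAAA, 1 AP-1 and 2 kappa B matches and is not printed. The 2 kappa B matches overlap each other, and a GGAAA match lies within the same stretch. The Tnfrsf8 window held a kappa B match and an AP-1 match and no GGAAA, while the Tnfsf14 window held 3 GGAAA and 1 AP-1 match. The Tnfsf11 window held 1 GGAAA, a core found in 55.6% of the windows of all genes. A role of these motifs in the changes was not tested.

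Total counts ranged from 43402632 to 64290105 per sample. All 10 T cell marker genes examined, Cd3e and Cd4 among them, were at a mean of at least 0.5 FPKM (a level scaled to transcript length and to the depth of the library) in every group, and their summed FPKM was 2113 to 2164 in Control, 2034 to 2127 under metformin, 1886 to 1941 under FK506 and 2001 to 2062 under the combination. The sums of B cell, myeloid and dendritic cell markers differed much more. The sum of 10 B cell markers was 62.87 to 66.88 in Control, 87.17 to 101.8 under metformin, 885.6 to 925.5 under FK506 and 427.1 to 458.2 under the combination. The sum of 10 myeloid markers was 4.404 to 4.574 in Control and 8.727 to 10.04 with metformin, with 3 and 5 of the 10 at 0 in all 3 samples, and it was 1319 to 1368 with FK506 and 886.7 to 1007 with the combination. Lyz2 made up most of that sum, at a mean of 981 FPKM with FK506 and 539 with the combination, and of the 10 myeloid markers 3 were called higher, 1 lower and 6 not called in the combination against FK506. The 6 dendritic cell markers summed to 2.598 to 2.798 in Control, 4.465 to 5.227 under metformin, 60.71 to 67.39 under FK506 and 39.49 to 42.45 under the combination, and the 5 markers of CD8 T and NK cells to 10.17 to 10.67, 17.74 to 18.47, 20.59 to 21.42 and 20.01 to 21.35. The difference of this CD8 and NK cell sum between FK506 and Control was that of Eomes, at a mean of 1.22 FPKM in Control and 13.6 with FK506, while Cd8b1 was at 7.90 and 5.44 and Cd8a at 1.28 and 1.61. In such bulk RNA, fewer cells of a type and less RNA per cell cannot be told apart, and the part of these other cells in the results below was not tested.

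All 4 receptor genes were lower under metformin, lower still under FK506 and lowest on average under the combination. Tnfrsf9, whose product 4-1BB supports survival of activated T cells, was the most abundant of the 10 in Control at 461, 446 and 456 FPKM. It measured 152, 154 and 153 FPKM with metformin, 43.3, 44.6 and 39.6 with FK506, and 35.6, 37.8 and 39.4 with the combination. Control and metformin samples stood apart from each other and from all others, while the FK506 and combination samples almost met. The fall was 3.04-fold with metformin (log2 fold change -1.61, SE 0.0418, adjusted p = 2.19e-14) and 11.6-fold with FK506 (-3.54, SE 0.0455, adjusted p = 7.46e-19), by edgeR's quasi-likelihood test.

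Tnfrsf8 encodes CD30, a receptor of activated lymphocytes, and had the largest proportional fall of the 10 in each comparison with Control. Its level was 33.5, 33.8 and 33.0 FPKM in Control. It fell to 4.47, 3.18 and 4.51 FPKM with metformin, to 1.64, 1.71 and 1.48 with FK506, and to 1.12, 0.953 and 0.742 with the combination. No 2 groups overlapped. The log2 fold change against Control was -3.08 (SE 0.108, adjusted p = 7.89e-13) under metformin, -4.58 (SE 0.12, adjusted p = 2.41e-15) under FK506 and -5.33 (SE 0.128, adjusted p = 8.79e-16) under the combination. Of the genes tested, 1.2% had a lower value than Tnfrsf8 under metformin, 0.901% under FK506 and 0.599% under the combination. The counts behind these levels were 6071, 7024 and 7037 in Control and still 213, 236 and 120 with the combination.

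Tnfrsf4 (OX40) and Tnfrsf18 (GITR), the neighbouring genes, followed the same order of groups. Tnfrsf4 measured 398, 417 and 394 FPKM in Control, 256, 268 and 260 under metformin, 82.3, 78.3 and 76.5 under FK506 and 74.5, 68.2 and 69.7 under the combination. Tnfrsf18 measured 372, 392 and 387 FPKM in Control, 210, 220 and 204 under metformin, 94.9, 95.5 and 83.0 under FK506 and 74.1, 77.2 and 71.7 under the combination. For both genes no 2 groups overlapped. Metformin lowered Tnfrsf4 by a log2 fold change of -0.66 (SE 0.0377, adjusted p = 3.42e-10) and Tnfrsf18 by -0.89 (SE 0.0512, adjusted p = 3.6e-10). On quantile-normalized FPKM these were -0.37 and -0.57. With FK506 the values were -2.57 (SE 0.0402, adjusted p = 4.64e-18) and -2.29 (SE 0.0537, adjusted p = 6.16e-16). Sdf4, which overlaps Tnfrsf4, was at mean FPKM of 161.9 in Control, 92.2 under metformin, 67.22 under FK506 and 60.61 under the combination, so it was lower in the same groups, and its part in the Tnfrsf4 values was not tested.

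**Figure D1:**
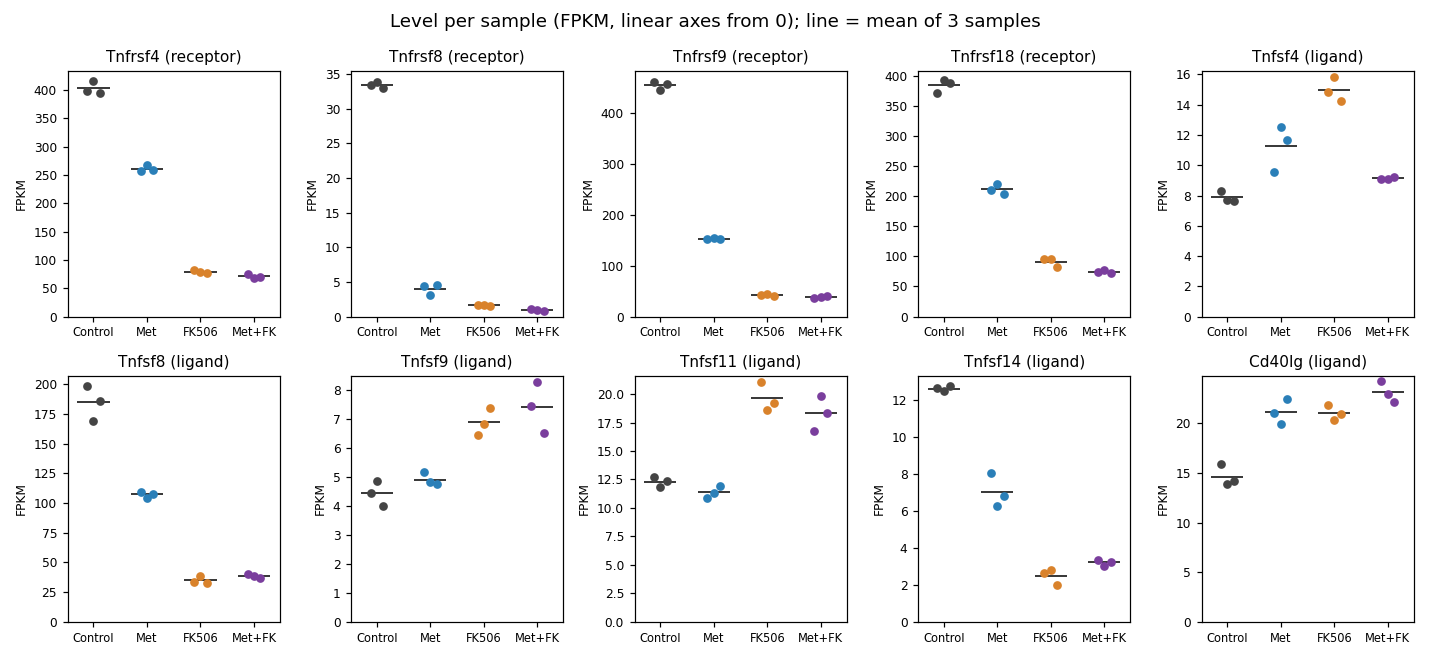
FPKM of the 10 genes in each of the 12 samples (points), by group on the x axis, on linear axes from 0, with a line at the mean of 3 samples. The 4 receptors, Tnfsf8 and Tnfsf14 are highest in Control and lowest in the 2 groups with FK506, where Tnfrsf9 lies between 35.6 and 44.6 FPKM against 446 to 461 in Control, while Tnfsf9, Tnfsf11 and Cd40lg are lowest in Control or metformin samples.

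Among the ligands, Tnfsf8 and Tnfsf14 fell with the receptors. Tnfsf8 encodes the ligand of CD30 and was the most abundant ligand gene in every group, at 199, 169 and 186 FPKM in Control. It measured 110, 105 and 107 FPKM under metformin, 33.7, 38.8 and 32.6 under FK506 and 39.96, 38.5 and 37.1 under the combination. The last 2 groups overlapped and the others did not. The log2 fold change against Control was -0.82 (SE 0.0564, adjusted p = 3.64e-09) with metformin and -2.62 (SE 0.06, adjusted p = 4.53e-16) with FK506.

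Tnfsf14 encodes LIGHT, a ligand of the herpesvirus entry mediator (Tnfrsf14) and of the lymphotoxin beta receptor. It measured 12.6, 12.5 and 12.8 FPKM in Control, 8.04, 6.24 and 6.83 under metformin, 2.66, 2.79 and 2.00 under FK506 and 3.36, 3.04 and 3.24 under the combination. No 2 groups overlapped. Its log2 fold change was -0.87 (SE 0.108, adjusted p = 3.75e-06) with metformin and -2.55 (SE 0.117, adjusted p = 4e-12) with FK506, close to the values of Tnfsf8. FK506 lowered these 2 ligand genes by 5.86-fold to 6.16-fold, and Tnfrsf4 by 5.95-fold.

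The other 4 ligand genes rose with FK506, by less than the receptors fell. Tnfsf4 (OX40 ligand) measured 8.31, 7.70 and 7.67 FPKM in Control, 9.57, 12.5 and 11.7 with metformin and 14.9, 15.8 and 14.2 with FK506. These 3 groups did not overlap, and the log2 fold change was 0.48 (SE 0.0889, adjusted p = 0.000234) with metformin and 0.71 (SE 0.0882, adjusted p = 1.44e-06) with FK506. With the combination Tnfsf4 measured 9.09, 9.09 and 9.24 FPKM, between Control and either drug alone. That left a log2 difference from Control of 0.02 (SE 0.0896, adjusted p = 0.845) on the counts. The same difference passed with limma on log2(FPKM + 1) (0.19, adjusted p = 0.0384) or log2(TPM + 1) (0.46, adjusted p = 0.000188) and on counts scaled to T cell markers (0.38, adjusted p = 0.000906), and not on quantile-normalized FPKM, so the call depended on the processing.

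Cd40lg encodes the ligand through which helper T cells act on B cells and dendritic cells. It measured 15.9, 13.8 and 14.2 FPKM in Control, 20.99, 19.9 and 22.5 under metformin, 21.8, 20.3 and 20.9 under FK506 and 24.2, 23.0 and 22.2 under the combination. Each drug group lay above Control, and the metformin group overlapped both groups with FK506. The log2 fold change against Control was 0.50 (SE 0.0676, adjusted p = 1.01e-05) under metformin, 0.31 (SE 0.0675, adjusted p = 0.00055) under FK506 and 0.47 (SE 0.0675, adjusted p = 7.36e-06) under the combination. Cd40lg was thus among the 2 members, with Tnfsf4, that metformin alone raised.

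Tnfsf11 encodes RANKL, which acts on dendritic cells and osteoclast precursors through RANK (Tnfrsf11a). Its levels were 12.7, 11.8 and 12.3 FPKM in Control, 10.9, 11.3 and 11.9 under metformin, 21.1, 18.6 and 19.2 under FK506 and 16.8, 19.9 and 18.4 under the combination. The Control and metformin samples overlapped, as did the 2 groups with FK506, and the 2 pairs of groups stood apart. The log2 fold change was -0.14 (SE 0.0713, adjusted p = 0.108) under metformin, 0.46 (SE 0.0698, adjusted p = 1.38e-05) under FK506 and 0.39 (SE 0.07, adjusted p = 8.22e-05) under the combination. The metformin value was called lower by edgeR when only the 2 groups were fitted (-0.15, adjusted p = 0.0255).

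Tnfsf9 (4-1BB ligand) had the lowest Control level of the ligands, at 4.46, 4.87 and 3.999 FPKM. It measured 5.17, 4.82 and 4.76 FPKM under metformin, 6.45, 6.84 and 7.38 under FK506 and 7.47, 8.28 and 6.51 under the combination. As with Tnfsf11, the samples separated by FK506 and not by metformin. Its log2 fold change was 0.12 (SE 0.119, adjusted p = 0.411) under metformin, 0.42 (SE 0.117, adjusted p = 0.00371) under FK506 and 0.56 (SE 0.117, adjusted p = 0.000341) under the combination. Gm11110, which overlaps it on the opposite strand, had mean FPKM of 4.747 in Control, 6.796 under metformin, 6.572 under FK506 and 7.557 under the combination. The 2 genes were therefore of similar level and both had higher means with FK506 than in Control, and their reads may not have been separated.

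Counted over the 10 members, metformin against Control gave 2 higher and 6 lower at adjusted p under 0.05, where 28.6% of all genes tested were higher and 27.4% lower. FK506 against Control gave 4 higher and 6 lower, with 41.3% and 39.6% over all genes. The combination against Control gave 3 higher and 6 lower, with 42.1% and 39.6% over all genes. These 3 comparisons share the Control samples. The FPKM of the groups did not overlap for 8 of the 10 members with metformin, against 65.0% of all genes, for 10 with FK506 (84.4%) and for 10 with the combination (82.0%). The median log2 fold change of the 4 receptors was -1.25 under metformin, -3.05 under FK506 and -3.18 under the combination, beside 0.01, 0.02 and 0.03 over all genes, and that of the 6 ligands was -0.0096, 0.36 and 0.21. Each member called in these 3 comparisons kept its direction and its call under every other test, filter, scaling and left-out sample tried. Scaling the samples to equal T cell marker sums moved the median of all genes by 0.45 in FK506 against Control and by 0.36 in the combination against Control. It also moved the share of calls that were higher from 51.1% to 67.5% in metformin, from 51.1% to 71.4% in FK506 and from 51.6% to 67.8% in the combination against Control. Under that scaling Tnfrsf9 was at -3.09 with FK506 and the 4 ligands that rose were at 0.76 to 1.16.

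**Figure D2:**
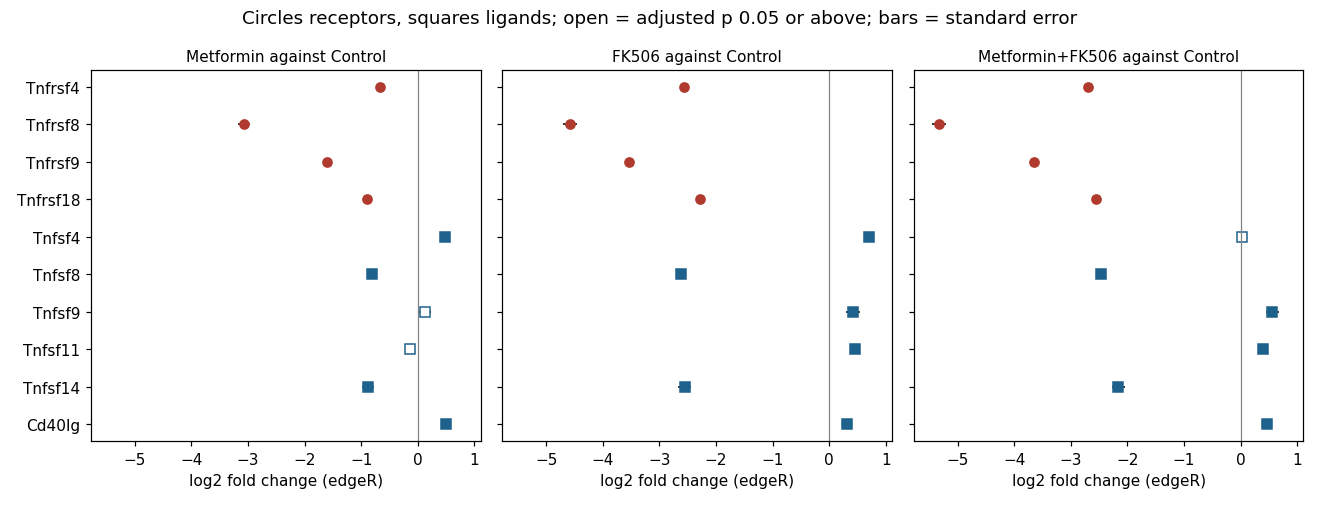
Log2 fold change (edgeR, x axis) of the 10 genes (y axis) in metformin, FK506 and the combination, each against Control; circles are receptors, squares are ligands, bars are standard errors and open symbols have an adjusted p of 0.05 or above. The receptors lie from -0.66 to -3.08 with metformin and from -2.29 to -4.58 with FK506, and the 4 ligands that rose with FK506 lie between 0.31 and 0.71.

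Set directly against metformin, FK506 gave lower values of 7 members and higher values of 3, where 38.6% of all genes were lower and 39.9% higher. Scaling to T cell markers moved the share of calls that were higher from 50.8% to 69.2%, and log2(TPM + 1) moved it to 75.3%. The 4 receptors were lower by log2 fold changes of -1.40 to -1.93, Tnfsf8 was lower by -1.81 (SE 0.0586, adjusted p = 5.33e-14) and Tnfsf14 by -1.68 (SE 0.117, adjusted p = 1.18e-09). Tnfsf11 was higher by 0.60 (SE 0.0701, adjusted p = 7.51e-07). On log2(TPM + 1), Tnfrsf8 was at -0.87, Tnfrsf18 at -0.92, Tnfsf14 at -1.10 and Tnfsf11 at 1.04, with the same calls. The other 3 calls were small and not stable: Tnfsf4 0.23 (adjusted p = 0.0238), Tnfsf9 0.30 (adjusted p = 0.0281) and Cd40lg -0.19 (adjusted p = 0.0153), the last of which was called higher on log2(TPM + 1) (0.28, adjusted p = 0.00171) and was 0.13 after scaling to T cell markers. Tnfsf4 lost its call without metformin replicate 1 (0.13, adjusted p = 0.134), without FK506 replicate 2 (0.20, adjusted p = 0.0687) or without a filter, and was 0.69 on log2(TPM + 1). Tnfsf9 lost its call in 5 of 23 alternatives, among them those without FK506 replicate 3 (0.26), metformin replicate 2 (0.29) or metformin replicate 3 (0.27), and was 0.72 on log2(TPM + 1). Cd40lg lost its call in 5, among them those without FK506 replicate 2, FK506 replicate 3 or metformin replicate 3. Of the 10 calls, 7 held under every other test, filter, scaling and left-out sample tried. The groups did not overlap in FPKM for 9 of the 10 members, against 81.7% of all genes.

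Adding FK506 to metformin gave 7 members lower and 2 higher, with 37.9% and 40.3% of all genes. The share of calls that were higher went from 51.6% to 64.9% after scaling to T cell markers and to 75.5% on log2(TPM + 1). The log2 fold changes of the receptors were -1.67 to -2.26, that of Tnfsf8 was -1.65 (SE 0.0583, adjusted p = 1.58e-13) and that of Tnfsf14 was -1.29 (SE 0.115, adjusted p = 2.69e-08). Tnfsf11 rose by 0.53 (SE 0.0703, adjusted p = 3.44e-06) and Tnfsf9 by 0.44 (SE 0.117, adjusted p = 0.00261). On log2(TPM + 1), Tnfrsf8 was at -1.44, Tnfsf14 at -0.73, Tnfsf11 at 0.98 and Tnfsf9 at 0.85, with the same calls. Tnfsf4 was lower by -0.46 (SE 0.0884, adjusted p = 0.000173) on the counts and at 0.031 on log2(TPM + 1), where it did not pass. Cd40lg stood at -0.028 (SE 0.0663, adjusted p = 0.705), but it was called higher on log2(TPM + 1) (0.45, adjusted p = 3.87e-05) and after scaling to T cell markers (0.20, adjusted p = 0.0162). The 2 groups did not overlap in FPKM for 9 of the 10 members, against 78.2% of all genes.

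Adding metformin to FK506 lowered Tnfrsf8 1.68-fold and Tnfsf4 1.61-fold, and the other members differed by less. At adjusted p under 0.05, 4 of the 10 were lower and 1 was higher, where 15.0% of all genes were lower and 15.6% higher. After scaling to T cell markers, 25.9% of the calls of all genes were higher, against 50.9%. Tnfrsf8 was lower by -0.75 (SE 0.146, adjusted p = 0.000968), Tnfsf4 by -0.69 (SE 0.0877, adjusted p = 1.78e-05) and Tnfrsf18 by -0.27 (SE 0.0531, adjusted p = 0.00104), with Tnfrsf8 at -0.41 on quantile-normalized FPKM, and these 3 calls held under every other test, filter, scaling and left-out sample tried. Tnfrsf4 was lower by -0.13 (SE 0.0393, adjusted p = 0.017). That call was lost without FK506 replicate 1 (adjusted p = 0.0697), on quantile-normalized FPKM with limma (adjusted p = 0.114) and when only the 2 groups were fitted (adjusted p = 0.0624). Tnfsf14 was higher by 0.39 (SE 0.12, adjusted p = 0.023), and its call was lost without FK506 replicate 3 (0.25, adjusted p = 0.117) or combination replicate 1 (0.35, adjusted p = 0.073), after scaling to T cell markers (0.30, adjusted p = 0.0697) and when only the 2 groups were fitted (0.39, adjusted p = 0.0912). Tnfrsf9 (-0.11, adjusted p = 0.0666), Tnfsf8 (0.15, adjusted p = 0.0574) and Cd40lg (0.16, adjusted p = 0.0754) did not pass, but Tnfrsf9 was called lower in 9 of 23 alternatives, with adjusted p = 0.0174 by DESeq2 and 0.00207 after scaling to T cell markers, and Tnfsf8 was called higher in 6, with adjusted p = 0.044 by DESeq2. Tnfrsf9 was among them without FK506 replicate 3 (adjusted p = 0.00722) or combination replicate 3 (adjusted p = 0.0348). Tnfsf8 was among them without Control replicate 1 or 2, FK506 replicate 2 or combination replicate 3. FPKM did not overlap between these groups for 7 members, against 38.6% of all genes. In these same samples the summed B cell markers were 427.1 to 458.2 FPKM with the combination against 885.6 to 925.5 with FK506. The summed dendritic cell markers were 39.49 to 42.45 FPKM with the combination against 60.71 to 67.39 with FK506. Of the 10 myeloid markers, 3 were called higher, 1 lower and 6 not called. The part of these differences in the values of Tnfsf4, whose product is made by B cells and other antigen-presenting cells, was not tested.

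The effect of metformin therefore differed with and without FK506 for most members. The interaction, which is the log2 fold change for metformin with FK506 minus that without, was higher than 0 for 6 members and lower for 2, where 22.5% of all genes were higher and 24.0% lower. After scaling to T cell markers, 23.7% of the calls of all genes were higher, against 48.3%. All 4 receptors were among the 6, which means that metformin lowered them less in the presence of FK506. Tnfrsf8 had the largest value, 2.33 (SE 0.183, adjusted p = 3.12e-08), since metformin lowered it 8.43-fold alone and 1.68-fold on top of FK506. Tnfrsf9 followed at 1.497 (SE 0.0595, adjusted p = 8.16e-12), with a fall of 3.04-fold alone and a difference of 1.08-fold with FK506, called only in some alternatives. The values were 0.62 (SE 0.0736, adjusted p = 3.39e-06) for Tnfrsf18 and 0.53 (SE 0.0544, adjusted p = 7.59e-07) for Tnfrsf4. They were 0.32 and 0.29 on quantile-normalized FPKM, and 0.41 and 0.31 after scaling to T cell markers.

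Among the ligands, the interaction was 1.26 (SE 0.162, adjusted p = 8.73e-06) for Tnfsf14 and 0.97 (SE 0.0807, adjusted p = 6.18e-08) for Tnfsf8. Tnfsf14 was lowered by metformin alone, and the call of its rise of 0.39 with FK506 was lost in 4 of 23 alternatives, as given above. Tnfsf4 went the other way, at -1.17 (SE 0.125, adjusted p = 1.13e-06): metformin raised it 1.39-fold alone and lowered it 1.61-fold with FK506. Of the 10 B cell markers, metformin alone gave 8 higher and 1 lower, and all 10 were lower in the combination against FK506. Their interaction was called lower for 9, with a median of -1.6. The part of B cells in the Tnfsf4 values was not tested. The value for Cd40lg was -0.34 (SE 0.0947, adjusted p = 0.00829). Tnfsf9 (0.021, SE 0.165, adjusted p = 0.941) and Tnfsf11 (0.068, SE 0.099, adjusted p = 0.609) did not pass, and their signs changed with the scaling. The 8 interaction calls of the members held under every other test, filter, scaling and left-out sample tried.

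**Figure D3:**
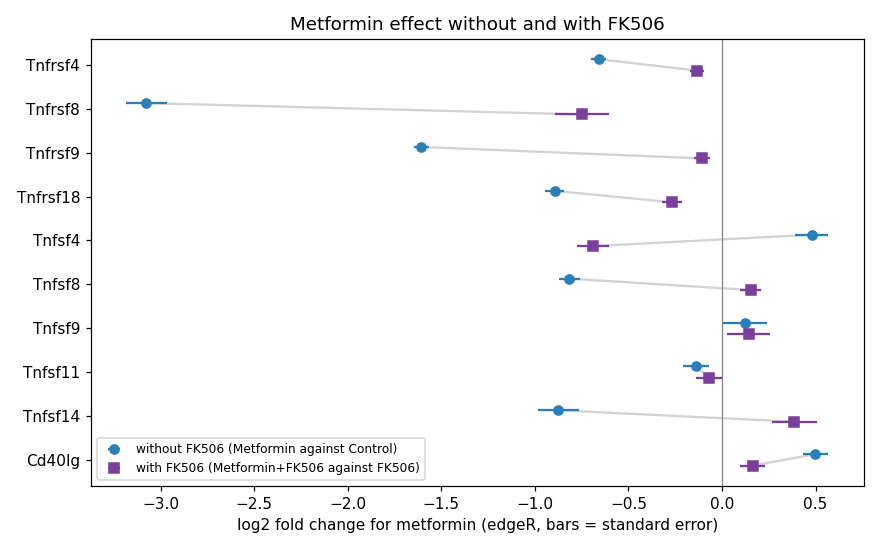
Log2 fold change for metformin (edgeR, x axis, bars are standard errors) for each of the 10 genes (y axis), without FK506 (circles, metformin against Control) and with FK506 (squares, the combination against FK506). The receptors move from -0.66 to -3.08 without FK506 to between -0.11 and -0.75 with it, and Tnfsf4 moves from 0.48 to -0.69.

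The ratio of a ligand's FPKM to that of its receptor within a sample does not depend on how samples are scaled. In Control, Tnfrsf9 exceeded Tnfsf9 by 103-fold and Tnfrsf4 exceeded Tnfsf4 by 51.1-fold. With FK506 these excesses were 6.20-fold and 5.28-fold. The ratio Tnfsf4/Tnfrsf4 was 0.0196 ± 0.00121 (SD, n = 3) in Control, 0.0430 ± 0.00496 under metformin, 0.190 ± 0.0112 under FK506 and 0.129 ± 0.00630 under the combination. Tnfsf9/Tnfrsf9 was 0.00979 ± 0.00108 in Control, 0.0321 ± 0.00160 under metformin, 0.163 ± 0.0207 under FK506 and 0.198 ± 0.0288 under the combination. For CD30 the ligand was the more abundant transcript throughout, with Tnfsf8/Tnfrsf8 at 5.52 ± 0.481 in Control, 27.1 ± 5.05 under metformin, 21.7 ± 1.14 under FK506 and 42.1 ± 7.23 under the combination.

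Of the 3 pairs whose receptor is not a member, Tnfsf11/Tnfrsf11a is given no ratio, since Tnfrsf11a had counts of only 16, 6 and 21 in Control, and the other 2 had lower ratios with FK506 than in Control. Cd40lg/Cd40 was 6.99 ± 0.795 in Control, 16.4 ± 3.97 under metformin, 0.834 ± 0.0458 under FK506 and 1.11 ± 0.0575 under the combination. Cd40, a receptor of B cells and other antigen-presenting cells, was itself at 2.1 FPKM on average in Control, 1.33 under metformin, 25.2 under FK506 and 20.9 under the combination, beside the B cell and myeloid marker sums given above. Tnfsf14/Tnfrsf14 was 0.709 ± 0.0106 in Control, and 0.326 ± 0.0430, 0.0699 ± 0.0131 and 0.0982 ± 0.00663 with metformin, FK506 and the combination. With 3 samples against 3, the two-sided exact permutation test of a ratio cannot go below p = 0.1, which each comparison of these ratios with Control gave (adjusted p = 0.103 over 30 tests, those of Tnfsf11/Tnfrsf11a included). The groups did not overlap in any of those comparisons. Such separation from Control was common for the FPKM of single genes, at 65.0% (metformin), 84.4% (FK506) and 82.0% (combination) of all genes. How often ratios of other gene pairs separate was not tested, so the lack of overlap does not set these pairs apart.

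**Figure D4:**
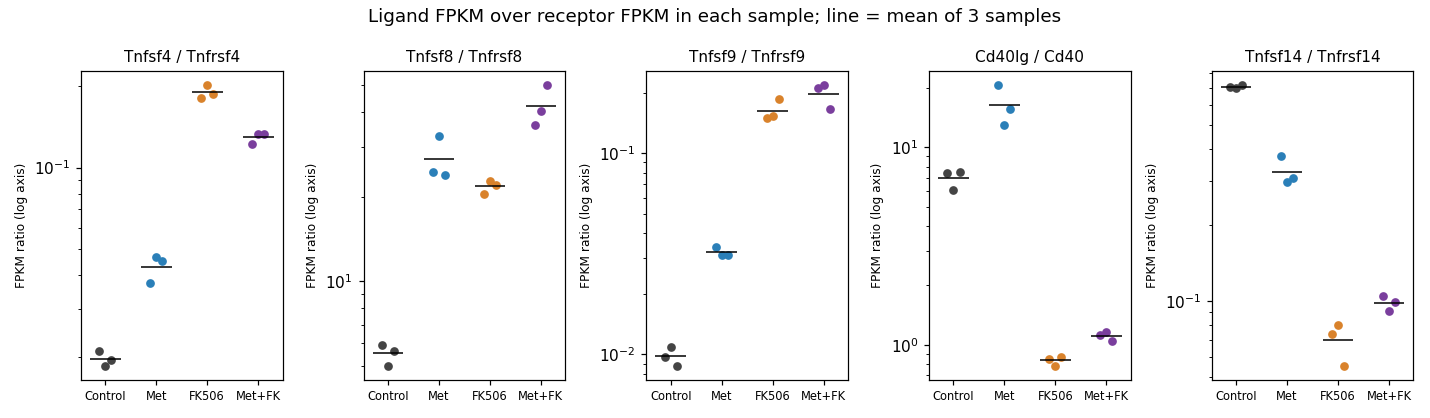
Ligand FPKM divided by receptor FPKM in each sample (points, log axis) for 5 ligand and receptor pairs, by group on the x axis, with a line at the mean of 3 samples. Tnfsf4/Tnfrsf4 and Tnfsf9/Tnfrsf9 are above Control in every drug group, reaching 0.190 and 0.163 with FK506, while Cd40lg/Cd40 is 6.99 in Control and 0.834 with FK506.

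Other binding partners of the members and the remaining TNF superfamily genes were examined from lists. Of 6 partners, 4 passed the filter on low values, and log2 fold changes with FK506 against Control were 3.35 for Cd40, 2.61 for Ltbr and 0.81 for Tnfrsf14, all called. Tnfrsf11a passed the filter only through the groups with FK506, at mean FPKM of 0.0364 in Control and 8.18 with FK506, so no fold or call is given for it. Tnfrsf11b did not pass the filter, with counts of 14, 21 and 14 in Control and 7, 0 and 6 with FK506, and neither did Tnfsf18. Of 27 other family genes, 20 passed the filter, and 15 of these rose and 5 fell with FK506, where 41.3% of all genes were higher and 39.6% lower. Of the 15 that rose, Tnfsf12, Tnfsf13b, Tnfrsf21 and Eda2r did not reach the filter minimum of 0.5 FPKM in all 3 Control samples, so the count leans on genes that are high with FK506. Among the 16 others, 11 rose and 5 fell. The largest fall was that of Lta (-3.53, adjusted p = 4.24e-18), which encodes lymphotoxin alpha, a product of activated lymphocytes, and Tnf (-0.82) and Fasl (-0.96) also fell. Cd27, a costimulatory receptor already present on naive T cells, rose by 1.32 with FK506 and by 1.15 with metformin. Thus Cd27 was raised by each drug where the 4 member receptors were lowered. Tnfrsf1b, the second TNF receptor, found on T cells and on myeloid cells, rose by 2.54 with FK506.

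With metformin the 20 other family genes gave 9 higher, 5 lower and 6 that did not pass, where 28.6% of all genes were higher and 27.4% lower. Without the 4 genes that reached the filter minimum only in groups with FK506, it was 8 higher and 4 lower of 16. Lta fell by 1.02 and Fas rose by 0.63. Tnf was at -0.12 (adjusted p = 0.0395) and Ltb at -0.06 (adjusted p = 0.296). Fasl rose by 0.59 with metformin, against its fall with FK506.

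The list of TRAF adaptors and NF-kappa B components, which lie downstream of the receptors, had all 20 genes tested. With FK506, 15 rose, 4 fell and Chuk did not pass, where 41.3% of all genes were higher and 39.6% lower. The median log2 fold change was 0.67. Traf5 (2.37), Nfkbie (1.96), Rel (1.41), Traf3 (1.27) and Birc2 (1.24) had the largest rises. Traf4 (-1.67), Nfkb1 (-1.08), Traf6 (-0.83) and Nfkb2 (-0.35) fell. With metformin the list gave 7 higher, 7 lower and 6 not called, with a median of 0.04, where 28.6% of all genes were higher and 27.4% lower. Traf5 (0.77), Relb (0.69) and Rel (0.51) rose, and Traf6 (-0.45), Map3k14 (-0.38), Traf4 (-0.38) and Nfkb1 (-0.31) fell. Map3k14 encodes NIK, the kinase of the alternative NF-kappa B pathway, and rose by 0.69 with FK506. Adding metformin to FK506 lowered 10 of the 20 and raised 3 (15.0% and 15.6% over all genes), among them Birc2 (-0.70), Rel (-0.61) and Map3k14 (-0.58) as lowered and Traf5 (0.31) as raised. Many of these genes are also expressed by B and myeloid cells.

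**Figure D5:**
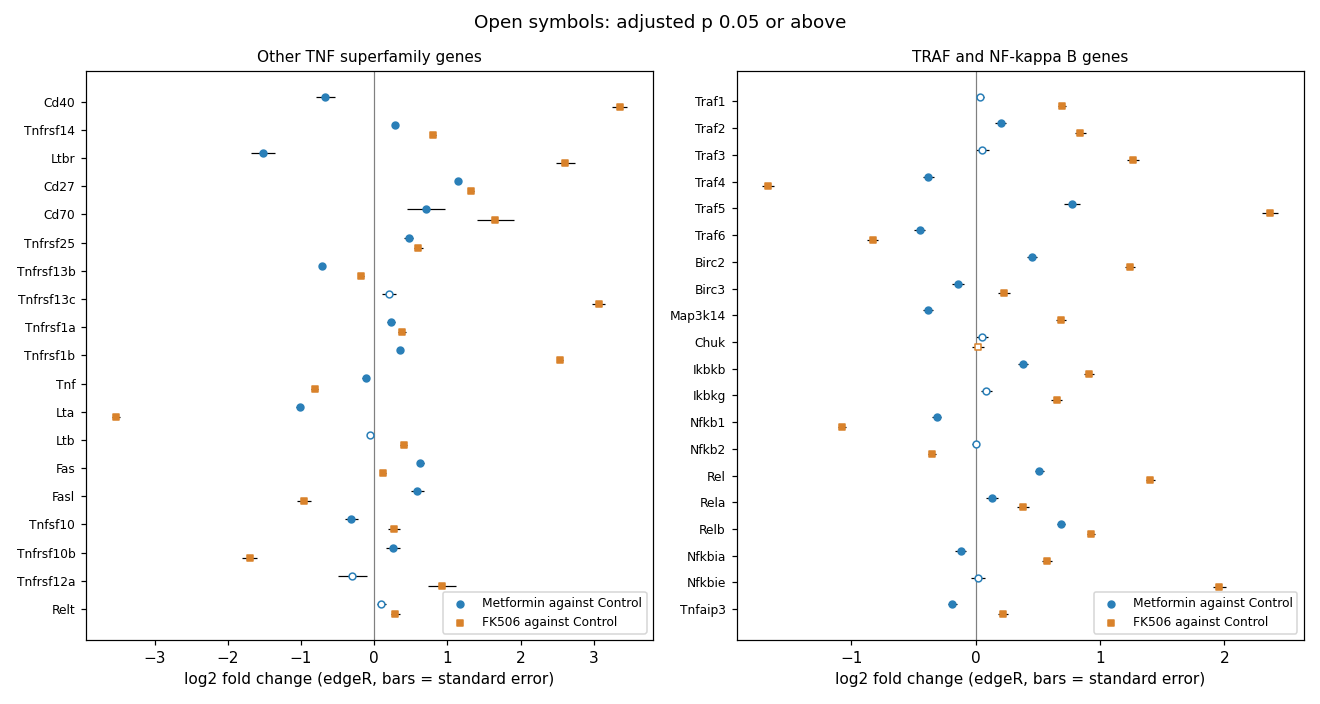
Log2 fold change (edgeR, x axis, bars are standard errors) with metformin (circles) and FK506 (squares) against Control, for the partners and other TNF superfamily genes tested that reached 0.5 FPKM in all 3 Control samples (left) and for TRAF and NF-kappa B genes (right); open symbols have an adjusted p of 0.05 or above. Lta lies at -3.53 with FK506 and Cd40 at 3.35, and most TRAF and NF-kappa B genes lie above 0 with FK506.

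For each member, the 2 genes with the most similar pattern were taken by the root-mean-square difference of centred log2 CPM (counts scaled to library size) over the 12 samples. Nearest to Tnfrsf4 were Gstt2 (0.0879) and Exoc2 (0.0935), nearest to Tnfrsf18 were Ubald2 (0.067) and Fdps (0.0772), and nearest to Tnfrsf9 were Syce2 (0.172) and Mfsd2a (0.178). Nearest to Tnfrsf8 were Isg15 (0.274) and Selp (0.376), at larger differences than for the other members. The difference is not scaled to the range of a gene, and Tnfrsf8 had the largest fold changes against Control of the 10. Isg15, an interferon-stimulated gene, was at a mean of 187 FPKM in Control, 19.6 under metformin, 10.1 under FK506 and 7.00 under the combination. Nearest to Tnfsf8 were Bcl2 (0.0845) and Mthfd1l (0.11), and nearest to Tnfsf14 were Rbpj-ps3 (0.145) and Cd200 (0.147). Bcl2, which encodes an inhibitor of apoptosis, was at 53.6, 34.5, 11.0 and 11.4 FPKM on average in the 4 groups in the same order. For the ligands that rose with FK506, the nearest were Pnkd (0.132) and Marveld1 (0.139) for Tnfsf4, Msl1 (0.0821) and Cc2d1a (0.0918) for Tnfsf9, Gsr (0.0684) and Etv5 (0.0688) for Tnfsf11, and Mtcp1 (0.0722) and Zxdc (0.0734) for Cd40lg.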

How the data were processed

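The deposited table gave read counts, FPKM and TPM per gene for all 12 samples. Per the labels, the submitters' processing notes name bcl2fastq 2.20.0, Trimmomatic, HISAT2 2.1.0, StringTie 2.1.3b and the mm10 build, and how the authors made the counts is not given in the sources used here. The deposited FPKM and TPM values, normalized by the authors for length and depth, were used for levels, ratios and alternatives. FPKM is lowered when a few genes or other cells take reads, and the TMM factors used in the tests on counts rest on most genes being alike between samples.

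Genes with FPKM reaching 0.5 in 3 samples or more (15197 of 45777) were tested on counts with edgeR 4.0.16 (R 4.3.3; TMM, glmQLFit and glmQLFTest, all 12 samples in 1 model of group means, 8 residual degrees of freedom). P-values were Benjamini-Hochberg adjusted over all genes tested and called under 0.05. The SE is the log2 fold change divided by the root of F. Alternatives were DESeq2 1.42.0, limma 3.58.1 on log2(FPKM + 1), log2(FPKM + 0.1) or log2(TPM + 1), other filters and scalings, a replicate block and leaving out each sample. Ratios were tested with scipy 1.17.1. The procedure was tested on simulated data. Counts of different replicates differed by more than sampling noise, and this spread may be technical. Each library was treated as a sample of its own. The genes named are the members, the listed partners, family, TRAF and NF-kappa B genes, and the 2 nearest genes of each member. Members and lists were chosen with earlier results of these data known.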

Additional observations from a re-analysis of the deposited data

Results flagged for a closer look

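The effect of metformin differed between cultures with and without FK506, by edgeR's test of the interaction (log2 fold change for metformin with FK506 minus that without), for 8 of the 10 genes. The values were 0.53 for Tnfrsf4, 2.33 for Tnfrsf8, 1.5 for Tnfrsf9, 0.62 for Tnfrsf18, 0.97 for Tnfsf8 and 1.26 for Tnfsf14, and -1.17 for Tnfsf4 and -0.34 for Cd40lg. Over all genes tested, 46.5% passed the same test. Groups of 3 samples are too small for a check for single outlying samples.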

How the results depend on the processing

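The 70 values of the 10 genes in 7 comparisons were recomputed under 23 alternatives, 1600 values in all. Of these, 1540 kept their direction and side of the threshold, 20 lost a call, 20 gained one and 20 changed sign. Every call of metformin, FK506 or the combination against Control and of the interaction was kept, as were 8 of 9 calls of the combination against metformin, 7 of 10 of FK506 against metformin and 3 of 5 of the combination against FK506. The TPM alternative was chosen after seeing the data. It moved the median of all genes by 0.40 in FK506 against Control, and scaling to T cell markers moved it by 0.45, so that 71.2% and 71.4% of calls were higher in place of 51.1%.

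Signs changed for 6 of the 70 values. Cd40lg in the combination against metformin was 0.13 on log2(FPKM + 1) and on log2(FPKM + 0.1), 0.0020 after quantile scaling, 0.20 after T cell marker scaling and 0.45 on TPM, and ran from -0.068 to 0.018 when each sample was left out. Cd40lg in FK506 against metformin was 0.13 with T cell marker scaling and 0.28 on TPM. The interaction of Tnfsf9 was -0.033 on log2(FPKM + 1), -0.046 on log2(FPKM + 0.1), -0.20 with T cell marker scaling and -0.077 to 0.11 when each sample was left out. That of Tnfsf11 was -0.15 with T cell marker scaling and -0.0076 to 0.14 when each sample was left out. Tnfsf4 was -0.033 in the combination against Control without a filter and 0.031 in the combination against metformin on TPM.

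The count of members higher in the combination against FK506, 1, was 2 with DESeq2 or a mean FPKM of at least 1, 0 with T cell marker scaling or when only the 2 groups were fitted, and 0 to 2 when each sample was left out (2 without Control replicate 1, Control replicate 2, FK506 replicate 2 or combination replicate 3, and 0 without FK506 replicate 3 or combination replicate 1). The count higher in FK506 against metformin was 1 in place of 3 without a filter. Asking also for a log2 fold change of at least 1 left 0 higher and 2 lower with metformin against Control, 0 higher with FK506 or the combination against Control, 0 higher and 0 lower in the combination against FK506, 0 higher in the combination and in FK506 against metformin, and 3 higher and 1 lower for the interaction. Apart from that threshold, the cause of these changes was not tested.

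Replicate numbers did not pair the samples. The deviations of same-numbered samples correlated between -0.065 and 0.047, and 3 of 12 samples correlated best with their own number. With a replicate block, FK506 against Control called 6224 genes higher and 5974 lower, and no call of a member changed.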

Other observations

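The count of a gene divided by its FPKM and the library total gives a relative measure of the transcript length used for the FPKM, after calibration on genes with a single listed transcript. For Tnfrsf9, which has 5 listed transcripts, this length was 2262 ± 3.40 bases (SD, n = 3) in Control, 2257 ± 4.20 under metformin, 2418 ± 13.9 under FK506 and 2496 ± 44.9 under the combination. The log2 difference was 0.096 (limma, SE 0.0108, adjusted p = 0.00144) for FK506 against Control, where 4.32% of 8226 genes with more than 1 listed transcript passed, and 0.14 (SE 0.0108, adjusted p = 0.000224) for the combination against Control, where 4.52% passed. Metformin against Control gave -0.0034 (adjusted p = 1). Of the other members only Tnfrsf4, Tnfrsf18, Tnfsf8 and Tnfsf9 have more than 1 listed transcript and were tested, and none of these 4 passed with limma in the comparisons of the drug groups with Control (adjusted p = 0.375 or higher). The test was added after seeing the data, and every group's value is above the longest annotated Tnfrsf9 transcript in GENCODE, of 2115 bases, so the length is a relative measure. The table does not show which Tnfrsf9 transcripts the reads came from.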
